A study of Homo sapiens with 6 samples.

Results

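The transcripts described here are 10 genes of the core pluripotency network and their near-identical copies, taken from the 17929 genes of a messenger RNA sequencing table by their symbols. They are SOX2, NANOG, PRDM14, SALL4, ZFP42 and DPPA4, the gene POU5F1, which encodes OCT4, and the copies POU5F1B, POU5F1P3 and POU5F1P4. POU5F1 itself held between 1 and 16 reads in a library, so it was also summed with its 3 copies, and that sum is called the POU5F1 family. The table holds 6 libraries from the established human embryonic stem cell lines H9 and HES2, kept on a layer of irradiated mouse embryonic fibroblasts and harvested on day 4 of infection with virus carrying a short hairpin RNA. In each line 1 library had a hairpin against luciferase (shLuc, the control) and 1 each had the hairpins shDDX18#1 and shDDX18#3 against DDX18, a nucleolar RNA helicase of the DEAD-box group. The control cells therefore share the feeders, the viral infection and a hairpin with the depleted cells, and the question the series put to them is the function of DDX18 in keeping embryonic stem cell identity. Each pairing of line and hairpin has 1 library, and no repeat culture is stated in the labels. A p-value here measures disagreement among these 6 samples only, between lines, between pooled hairpins or both. It does not measure the spread between repeated cultures.

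SOX2 and OCT4 bind DNA side by side as a pair of transcription factors and, with the homeodomain protein NANOG, hold the regulatory circuit of the pluripotent cell, each acting on its own gene and on the genes of the others. PRDM14 and SALL4 are zinc finger proteins that act in the same circuit. ZFP42 and DPPA4 are expressed in pluripotent cells and lost early in differentiation, and serve as markers of the state. POU5F1P3 and POU5F1P4 are processed pseudogenes, copies of the spliced OCT4 messenger set back into the genome without introns, and POU5F1B is a copy with an open reading frame.

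POU5F1 and its copies share long stretches of sequence, which bears on how a short read can be assigned among them. In GENCODE 29 on GRCh38, POU5F1 lies at chr6:31164337-31180731 on the minus strand, POU5F1P3 at chr12:8133772-8134849 on the minus strand and POU5F1P4 at chr1:155433178-155434262 on the plus strand. Against the reference transcript POU5F1-201, of 1420 bases in 5 exons, POU5F1P3 differed at 20 of 1078 aligned positions (98.1% identical), POU5F1P4 at 30 of 1084 (97.2%) and POU5F1B at 28 of 1371 (98.0%). Of the 1034 windows of 50 bases in the OCT4 coding sequence, 72.1% occur letter for letter in at least 1 copy, and of the 196 windows that cross an exon junction 78.6% do. POU5F1P3 alone holds 54.6% of the junction windows, POU5F1P4 17.9% and POU5F1B 33.7%. The stretches below show 30 bases on each side of the junctions between exons 1 and 2 (transcript positions 449 to 508) and between exons 3 and 4 (positions 701 to 760), 5′ to 3′, with capitals for the letters of POU5F1P4 that differ from POU5F1. POU5F1P3 carries the POU5F1 letters at both.
POU5F1 exons 1 and 2: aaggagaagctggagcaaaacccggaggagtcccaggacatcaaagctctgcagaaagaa
POU5F1P3 exons 1 and 2: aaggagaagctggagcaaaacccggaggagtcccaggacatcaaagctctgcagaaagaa
POU5F1P4 exons 1 and 2: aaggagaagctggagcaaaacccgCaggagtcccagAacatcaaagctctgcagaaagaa
POU5F1 exons 3 and 4: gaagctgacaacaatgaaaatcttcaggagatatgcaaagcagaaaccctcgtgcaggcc
POU5F1P3 exons 3 and 4: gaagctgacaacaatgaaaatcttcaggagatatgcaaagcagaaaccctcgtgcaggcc
POU5F1P4 exons 3 and 4: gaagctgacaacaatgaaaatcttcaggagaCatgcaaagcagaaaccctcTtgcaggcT

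The stretches before the start sites of members were searched for letters that OCT4 and SOX2 are known to bind. Of the 10 genes, 4 were matched in the RefSeq promoter table (GRCh38.p14), SOX2, NANOG, ZFP42 and DPPA4, all of which fell in the values below. The 250 bases upstream of each start were searched on both strands for the POU half-site ATGCAAA, the SOX core CATTGT and the joined element CATTGTNATGCAAA, which contains both of the others. The upstream 250 bases of SOX2 (chr3:181711675-181711924, plus strand) hold the POU half-site, and those of NANOG (chr12:7789152-7789401, plus strand) hold the joined element on the opposite strand. Capitals mark these matches.
SOX2 upstream: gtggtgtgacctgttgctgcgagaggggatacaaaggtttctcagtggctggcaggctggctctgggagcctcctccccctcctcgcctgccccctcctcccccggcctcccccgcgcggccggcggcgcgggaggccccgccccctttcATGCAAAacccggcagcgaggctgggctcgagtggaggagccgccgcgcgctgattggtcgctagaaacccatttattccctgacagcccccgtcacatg
NANOG upstream: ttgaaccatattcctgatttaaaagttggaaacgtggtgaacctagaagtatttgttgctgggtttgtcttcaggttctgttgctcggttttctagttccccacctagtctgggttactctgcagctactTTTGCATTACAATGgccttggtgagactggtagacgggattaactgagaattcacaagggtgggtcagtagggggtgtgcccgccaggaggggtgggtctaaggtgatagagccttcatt

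In SOX2 the match lies from -100 to -94 relative to the start, and in NANOG from -120 to -107. Of 35116 promoters of the same length, 3.94% hold the POU half-site, 9.29% the SOX core and 0.0057% the joined element. The upstream windows of ZFP42 and DPPA4, which fell by about as much as NANOG, hold none of these letter strings. A match describes letters in the reference and shows no binding in these cells.

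Levels are the deposited normalised read counts, scaled to 1000000 reads of the effective library (CPM), and a log2 fold change is on the log2(value + 1) scale, which understates the change of low genes. The 6 libraries held between 2668179 and 4271741 reads, so that 1 read is worth 0.224 to 0.408 CPM. The test took genes reaching 1 CPM in 2 or more libraries, 17768 in all with each of the 10 among them, and a gene was called at a Benjamini-Hochberg adjusted p under 0.05 in limma with the cell line as a block. The targeted transcript, DDX18, stood in H9 at 153 CPM with shLuc, 19.2 with shDDX18#1 and 47.3 with shDDX18#3, and in HES2 at 161, 39.3 and 60.4. DDX18 was therefore lower with both hairpins in both lines, and lowest with shDDX18#1. In bulk RNA, fewer cells of a type and less RNA per cell cannot be told apart.

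Across both hairpins and lines, 8 of the 10 transcripts fell against shLuc and 0 rose, where 6.26% of all genes tested fell, 9.6% rose and 15.9% were called either way. The 8 were SOX2, NANOG, PRDM14, ZFP42, DPPA4, POU5F1B, POU5F1P3 and POU5F1P4. SALL4 and POU5F1 did not pass. Reads of POU5F1 and its copies may not be told apart, so these genes are not separate counts. Outside the POU5F1 family, 5 of the 6 genes fell and 0 rose. In 9 of the 10 all 4 knockdown libraries lay below both shLuc libraries, a pattern of 20.9% of all genes, with POU5F1P4 as the exception. POU5F1 is among the 9 on few reads, with 5 in H9 shDDX18#3 against 6 in H9 shLuc. All 10 log2 fold changes were below 0, with a median of -1.41 against -0.02 for all genes. The authors' deposited table gives a false discovery rate under 0.05 to the same 8 genes.

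**Figure D1:**
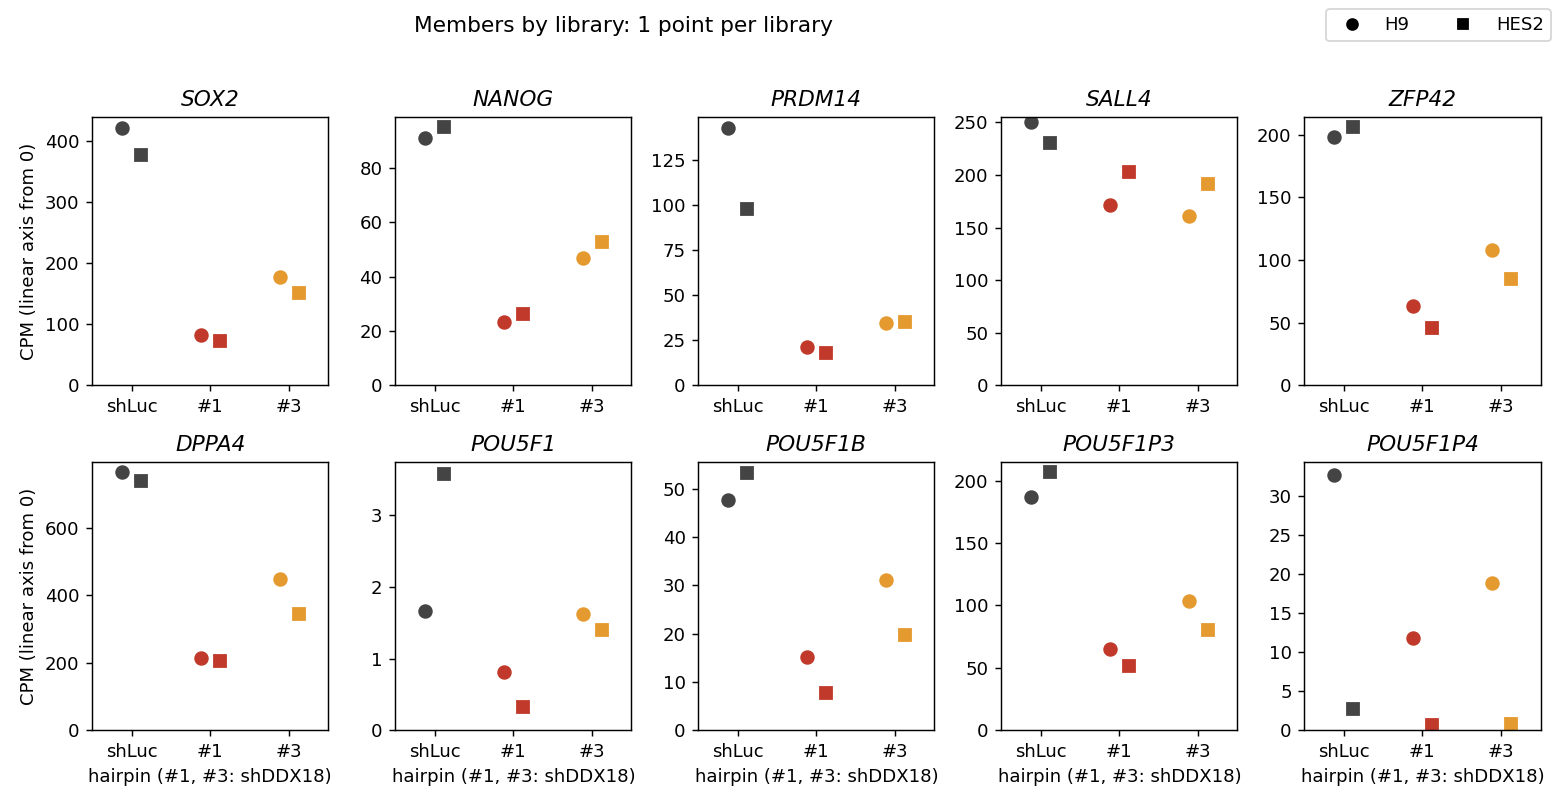
Normalised read count (CPM, linear axis from 0) of each of the 10 genes in the 6 libraries, by hairpin, with 1 point per library (circles H9, squares HES2). In 9 of the 10 panels all 4 knockdown libraries lie below both shLuc libraries, the exception being POU5F1P4. For POU5F1 the H9 values with shDDX18#3 and shLuc are 1.62 and 1.66 CPM, on 5 and 6 reads. Among the 6 genes outside the POU5F1 family SALL4 has the smallest log2 fold change, at -0.41.

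SOX2, the HMG-box partner of OCT4, stood in H9 at 422 CPM with shLuc, 82.1 with shDDX18#1 and 178 with shDDX18#3. HES2 gave 377, 72.7 and 151 CPM in the same order. The lines kept nearly the same share of their own control level, 19.5% in H9 and 19.3% in HES2 with shDDX18#1, and 42.1% and 40.2% with shDDX18#3. From 399.5 ± 31.7 CPM (SD, n = 2) in shLuc the mean went to 121 ± 51.6 (SD, n = 4), which is -1.82 ± 0.35 (SE) on the log2 scale (limma adjusted p = 0.0154). SOX2 (chr3:181711924-181714436 on GRCh38, plus strand) lies within the long non-coding gene SOX2-OT, and a library kit that does not keep strand leaves reads of an overlap open to either gene.

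NANOG, at chr12:7787794-7799141 on the plus strand, was measured at 90.8, 23.3 and 46.7 CPM in H9 with shLuc, shDDX18#1 and shDDX18#3. The HES2 values were 95.01, 26.4 and 52.6 CPM. Each knockdown library was below both controls, and the 2 lines differed little at any hairpin. The fall was 1.38 on the log2 scale (SE 0.33, limma adjusted p = 0.029). NANOG has its own near-identical copy, NANOGP8, with 5 differing positions among 918 aligned (99.5% identical). NANOGP8 held 25.2, 8.98 and 17.5 CPM in H9 and 6.93, 1.61 and 5.57 in HES2, in the order shLuc, shDDX18#1, shDDX18#3. With the reads of both genes added, an alternative chosen after seeing the data, the log2 fold change was -1.32 (limma adjusted p = 0.0346). The lower NANOGP1 stood at 6.09, 3.68 and 4.54 CPM in H9 and 5.37, 0.322 and 3.34 in HES2, and did not pass (limma adjusted p = 0.223).

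PRDM14, a zinc finger regulator that holds back differentiation genes, had the largest log2 fold change of the 10 in this fit. H9 held 143 CPM with shLuc, 21.2 with shDDX18#1 and 34.7 with shDDX18#3, and HES2 held 97.7, 17.7 and 35.4. The controls of the 2 lines were further apart than the knockdown libraries of a hairpin, and no knockdown library reached either control. The difference was -2.13 ± 0.30 (SE) on the log2 scale (limma adjusted p = 0.0054).

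SALL4, the zinc finger protein needed for self-renewal and at chr20:51782331-51802520 on the minus strand, changed least in size among the genes outside the POU5F1 family. H9 gave 251, 171 and 161 CPM and HES2 230, 203 and 191 for shLuc, shDDX18#1 and shDDX18#3. All 4 knockdown libraries were below both controls, but they kept 64.2% to 68.3% of the control level in H9 and 83.1% to 88.3% in HES2. The log2 fold change of -0.41 (95% interval -0.74 to -0.08) did not pass (limma adjusted p = 0.0895), nor did that of either hairpin alone. SALL4 was also the only one of the 10 without the order shDDX18#1 below shDDX18#3 below shLuc in both lines, an order that 15.8% of all genes had.

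The markers ZFP42 and DPPA4 fell by about as much as NANOG. ZFP42, at chr4:187995771-188005050 on the plus strand, was read at 198, 63.7 and 108 CPM in H9 and at 206, 45.7 and 85.2 in HES2. DPPA4, a chromatin-associated protein encoded at chr3:109326141-109337572 on the minus strand, stood at 767, 213 and 448 CPM in H9 and at 740, 204 and 345 in HES2. For both genes the controls of the lines lay close together and every knockdown library was well below them. The log2 fold changes were -1.47 for ZFP42 (limma adjusted p = 0.017) and -1.39 for DPPA4 (limma adjusted p = 0.0238).

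The POU5F1 family as a whole fell alongside them. Its summed level in H9 was 269 CPM with shLuc, 93.1 with shDDX18#1 and 155 with shDDX18#3, from 970, 228 and 479 reads. In HES2 the sum was 266, 59.9 and 102 CPM, from 1192, 186 and 367 reads. The controls of the 2 lines were nearly equal, and the knockdown libraries were lower in HES2 than in H9 for both hairpins. On the log2 scale the sum changed by -1.45 ± 0.28 (SE, limma adjusted p = 0.0154).

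Within the family, nearly all reads were assigned to the copies, which held between 98.6% and 99.5% of family reads in each library. POU5F1P3 stood at 187, 65.3 and 104 CPM in H9 and 207, 51.2 and 80.2 in HES2, with a log2 fold change of -1.42 (limma adjusted p = 0.0117). POU5F1B was read at 47.6, 15.1 and 31.1 CPM in H9 and 53.2, 7.72 and 19.8 in HES2, with -1.55 (limma adjusted p = 0.0412). Both copies had all knockdown libraries below both controls. POU5F1 itself was assigned 6, 2 and 5 reads in H9 and 16, 1 and 5 in HES2, or 1.66, 0.817 and 1.62 CPM and 3.58, 0.322 and 1.39 CPM. The shDDX18#1 library of each line was under a floor of 3 reads, and the log2 fold change of -0.83 (95% interval -1.78 to 0.13) did not pass (limma adjusted p = 0.206). Exact Poisson 95% intervals, for counting error only, did not overlap between HES2 shLuc (2.04 to 5.81 CPM) and HES2 shDDX18#1 (0.00815 to 1.79). That of HES2 shDDX18#3, 0.452 to 3.25 CPM, overlapped both, and in H9 those of the 3 libraries overlapped. The share of all genes with such a gap was not counted. Which of the 4 genes the family reads came from was not tested.

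**Figure D2:**
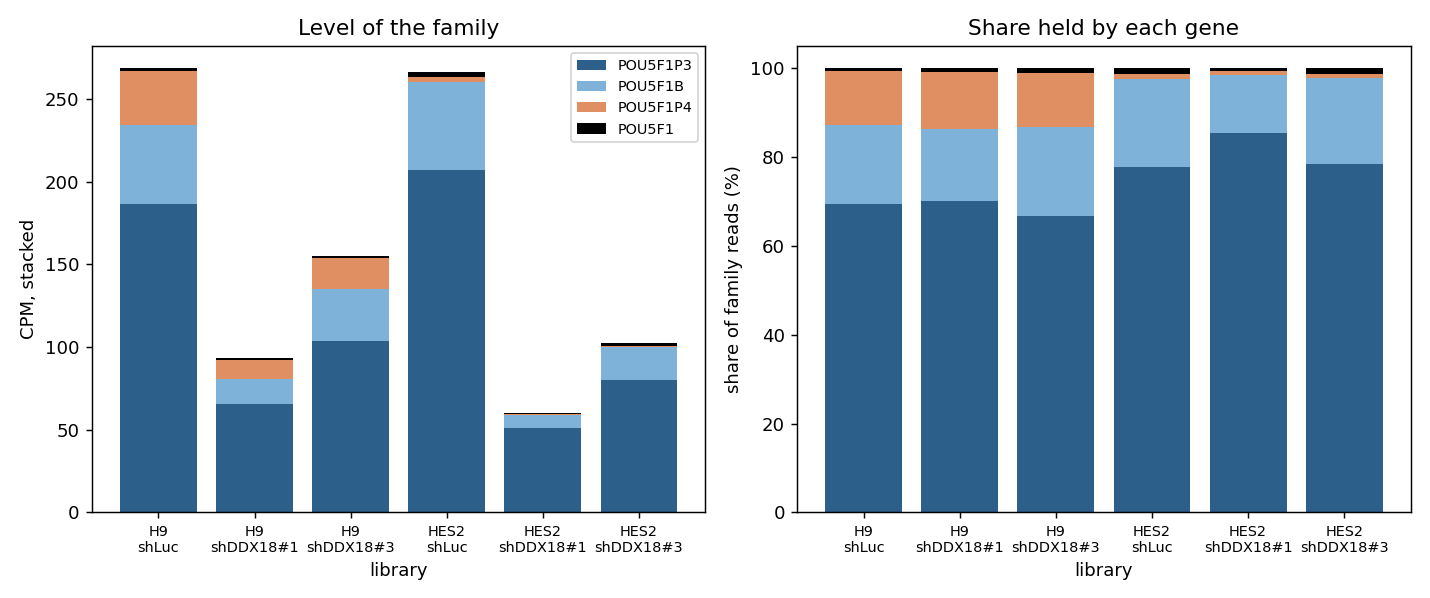
Stacked level of the POU5F1 family in CPM (left, linear axis from 0) and the share of family reads assigned to each of its 4 genes in percent (right), 1 bar per library. The summed level drops with both hairpins in both lines, POU5F1P3 holds between 66.8% and 85.5% of reads, and POU5F1P4 holds over 12% in H9 and about 1% in HES2.

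Between the lines 1 of the 10 genes passed the test, POU5F1P4, while 3.98% of all genes were called lower and 1.44% higher in HES2 than in H9 (5.42% either way). POU5F1P4 was measured at 32.7, 11.8 and 18.8 CPM in H9 and at 2.68, 0.644 and 0.835 in HES2, so that every H9 library was above every HES2 library. The log2 difference, HES2 minus H9, was -3.2 (95% interval -3.8 to -2.59, limma adjusted p = 0.000581), and in the shLuc libraries the H9 level was 12.2 times that in HES2. Its share of family reads was 12.2%, 12.7% and 12.1% in the 3 H9 libraries and 1.01%, 1.08% and 0.817% in HES2. The exact (Clopper-Pearson) 95% intervals, which cover counting error only, reached down to 8.69% in H9 and up to 3.83% in HES2. The 2 pseudogenes together took a like share in both lines, 78.9% to 82.9% in H9 and 78.7% to 86.6% in HES2. In the knockdown comparison POU5F1P4 fell by 1.08 on the log2 scale (limma adjusted p = 0.0451), on only 12, 2 and 3 reads in HES2, and its knockdown libraries of H9 lie above the HES2 control. NANOGP8 also differed between lines, by -1.72 (limma adjusted p = 0.00602), with 21.7% to 27.8% of the reads of NANOG and NANOGP8 in H9 and 5.75% to 9.57% in HES2. The other 9 genes had line differences between -0.45 and 0.14, and the family sum -0.41 (95% interval -0.75 to -0.08, limma adjusted p = 0.151).

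Each hairpin was also compared with shLuc on its own, and these comparisons share the shLuc libraries. With shDDX18#1 the same 8 genes as above were called lower and 0 higher (13.4% of all genes were lower, 14.4% higher, 27.8% either way), and the log2 fold change was -2.35 for SOX2, -1.86 for NANOG, -2.55 for PRDM14 and -1.83 for the family sum. With shDDX18#3, 6 were called lower and 0 higher (3.69% of all genes were lower, 6.96% higher, 10.6% either way), and the corresponding values were -1.28, -0.89, -1.72 and -1.08. POU5F1B and POU5F1P4 were the genes that passed with the first hairpin and missed with the second, where POU5F1B had -0.99 (limma adjusted p = 0.0543) and POU5F1P4 -0.89 (limma adjusted p = 0.124). Outside the POU5F1 family, 5 of the 6 genes were called lower with each hairpin.

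**Figure D3:**
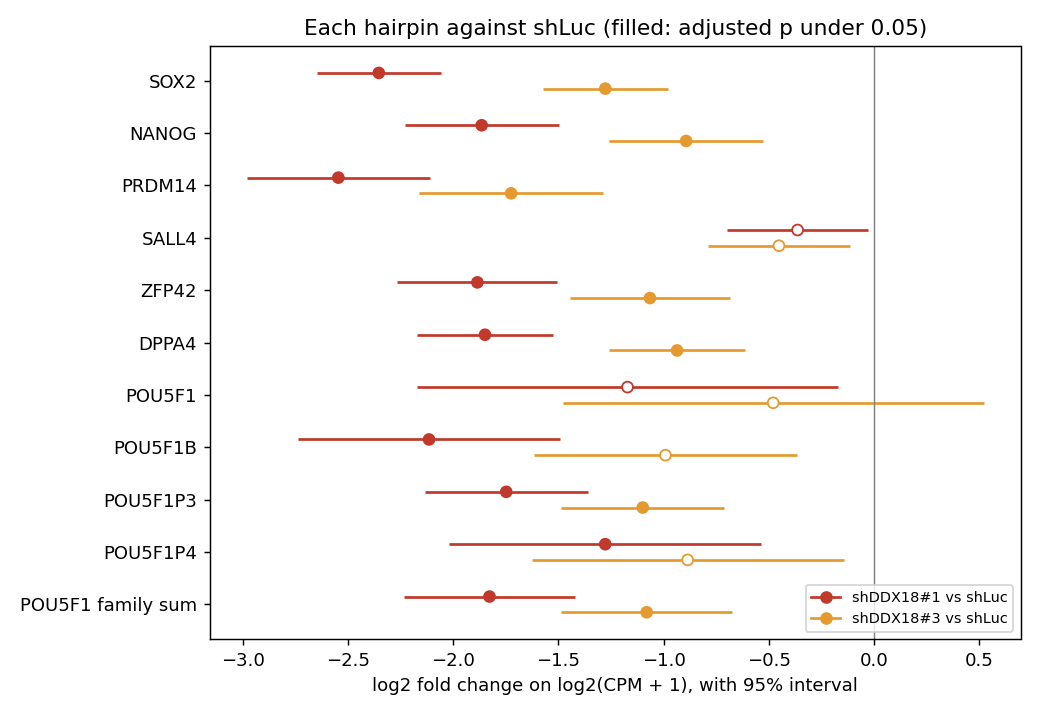
Log2 fold change of each gene and of the POU5F1 family sum for each hairpin against shLuc, on log2(CPM + 1), with 95% intervals from limma (filled points: adjusted p under 0.05). The shDDX18#1 points lie further from 0 than the shDDX18#3 points for every gene except SALL4, and POU5F1 has the widest intervals.

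The direct test between hairpins called 0 of the 10 in limma, and 0% of all genes. At an unadjusted p under 0.05, 7 of the 10 and 2536 of all genes differed in limma. After adjustment edgeR called 1 of the 10 and 31 of all genes, and DESeq2 2 of the 10 and 113 of all genes. The smallest limma adjusted p among the 10 was that of SOX2, higher with shDDX18#3 by 1.08 on the log2 scale (95% interval 0.78 to 1.37, adjusted p = 0.0541). DPPA4 was higher by 0.91 (0.59 to 1.24, limma adjusted p = 0.0824) and NANOG by 0.97 (0.61 to 1.34, limma adjusted p = 0.0889), and SALL4 differed by -0.09 (-0.43 to 0.25). DDX18 was itself higher with shDDX18#3, by 0.93 (0.43 to 1.44, limma adjusted p = 0.145).

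Whether the knockdown acted differently in the 2 lines could not be resolved. The interaction test in limma called 0 of the 10 and 0% of all genes, with 0 of the 10 and 788 of all genes at an unadjusted p under 0.05. Both edgeR and DESeq2 also called 0 of the 10, and of all genes edgeR called 0 and DESeq2 14. The difference in log2 fold change, HES2 minus H9, was -0.04 for SOX2 with a 95% interval of -1.83 to 1.75, and -0.60 for the family sum with -1.93 to 0.73. The interaction fit pools the 2 hairpins of a line, so the difference between hairpins enters its spread and can widen these intervals. Intervals of this width hold differences as large as the effects themselves.

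The count of 8 comes from a fit that pools both hairpins, so the difference between hairpins enters its spread. In this pooled fit the count depended on having a control in each line. With either shLuc library left out 0 of the 10 passed, in a fit where the line without a control no longer informs the effect. Without HES2 shDDX18#1, 4 passed (SOX2, PRDM14, ZFP42 and POU5F1P3). All 10 fold changes stayed below 0 in each of these fits.

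Set per kilobase of exon (GENCODE 29), which allows levels to be ranked between genes, the order in both controls began with POU5F1P3 (173 CPM per kb in H9 and 192 in HES2), SOX2 (168 and 150) and DPPA4 (153 and 148). SOX2 and DPPA4 overlapped in the range of the 2 lines, as did PRDM14 (58.4 and 40.0 CPM per kb) and SALL4 (43.4 and 39.9). In the shDDX18#1 libraries DPPA4 stood above SOX2 (42.6 against 32.7 CPM per kb in H9, 40.8 against 28.9 in HES2). SALL4, with 29.6 and 35.2 CPM per kb, moved up from rank 6 in both controls to rank 4 in H9 and rank 3 in HES2. By the reads assigned to it, POU5F1 was lowest of the 10 in all 6 libraries. How reads of near-identical copies were placed is not given. The ranks of POU5F1 and its copies therefore describe assigned reads only, and not which gene was transcribed most.

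The other genes of the primed pluripotent state, the state of conventional human embryonic stem cells, were counted beside them. Of 38 measured, 20 fell, 1 rose and 17 did not pass, with a median log2 fold change of -0.86 against -0.02 for all genes. The shares of all genes tested were 6.26% lower and 9.6% higher. TERF1, a telomere-binding protein, was at 343, 50.6 and 94.0 CPM in H9 and 482, 88.2 and 168 in HES2 (log2 fold change -2.14, limma adjusted p = 0.0057). DNMT3B, which sets new DNA methylation, fell by 1.95 (limma adjusted p = 0.0029), the forkhead factor FOXD3 by 1.57 (limma adjusted p = 0.0095) and the RNA-binding protein TRIM71 by 1.16 (limma adjusted p = 0.0045). The gene that rose was OTX2, a homeobox factor also used in neural ectoderm, by 1.28 (limma adjusted p = 0.0162). LIN28A, with -0.47 (limma adjusted p = 0.12), and the surface protein gene PODXL, with 0.65 (limma adjusted p = 0.0988), were among those that did not pass.

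A list of genes kept for the naive state, the earlier form of pluripotency, split, and not every gene in it is particular to that state. Of 13 measured, 4 rose, 1 fell and 8 did not pass, with a median of 0.90. The shares of all genes tested were 9.6% higher and 6.26% lower. The Krüppel-like factors KLF5 and KLF2 rose by 1.68 (limma adjusted p = 0.008) and 2.19 (limma adjusted p = 0.0464), and TBX3 and PRDM1 by 1.95 (limma adjusted p = 0.0189) and 1.99 (limma adjusted p = 0.0155). KLF2 held 0.277 and 1.12 CPM in the controls, the first of them 1 read, so its size is uncertain. FGF4, a growth factor gene also counted among the primed genes, fell by 2.39 (limma adjusted p = 0.021). Among 18 measured paralogs of the 10 genes, 2 fell and 1 rose, with a median of -0.10, a count near the 15.9% of all genes called either way. The 2 were SALL2 (-1.32, limma adjusted p = 0.0199) and SALL3 (-1.71, limma adjusted p = 0.0183), relatives of the SALL4 that did not pass. The riser was PRDM1, already counted in the naive list. POU2F1, a relative of OCT4 expressed in most cells, stood at 100.2, 38.0 and 64.5 CPM in H9 and 92.1, 58.2 and 70.5 in HES2 and did not pass (limma adjusted p = 0.0613).

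The profiles most like those of the 10 across the 6 libraries were ranked by the root mean square distance between centred log2(value + 1) profiles among 10820 genes with a mean of at least 10 CPM. Among the nearest to SOX2 were ADD2 (distance 0.12), SNHG4 (0.16) and PTPRZ1 (0.17), and DPPA4 ranked 8, ZFP42 9, PRDM14 12, NANOG 26 and POU5F1B 31. ADD2, for example, had 307, 62.5 and 143 CPM in H9 and 273, 47.0 and 94.7 in HES2. L1TD1 (0.10), BLM (0.12), GINS1 (0.12) and BEND4 (0.12) were nearest to NANOG, with DPPA4 at rank 27, ZFP42 117, SOX2 154, POU5F1B 572 and PRDM14 706. A rank counts the genes that lie nearer, so ranks from different genes do not compare distances. SOX2 and NANOG were 0.27 apart at either rank, and DPPA4 was 0.18 from NANOG and 0.22 from SOX2. The family sum had ZFP42 as its nearest gene (0.09), followed by LNCPRESS1 (0.11), C13orf42 (0.11) and PHC1P1 (0.14), with DPPA4 at rank 14, SOX2 49, NANOG 114 and PRDM14 310. SALL4 ranked 3160 from SOX2, 3058 from NANOG and 3331 from the family sum.

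Markers of other cell types moved in the same libraries. Of 26 fibroblast and feeder markers, 17 rose and 0 fell, and their summed level in H9 was 7801 CPM with shLuc, 104763 with shDDX18#1 and 38470 with shDDX18#3. In HES2 the sum was 3193, 36181 and 22264 CPM. COL1A1, a fibrillar collagen gene of fibroblasts and other mesenchymal cells, stood at 687, 18386 and 6175 CPM in H9 and 59.5, 1124 and 749 in HES2. DCN and FAP, the only markers of the list at 0 in any library, were at 0 in HES2 with shLuc and shDDX18#3, and in H9 stood at 5.54, 44.9 and 14.3 CPM and at 0.831, 30.6 and 12.3. LUM, with 4.69, 55.3 and 64.3 CPM in HES2, and PDGFRB, with 20.1, 66.9 and 62.9, were higher in both HES2 knockdown libraries than in the control. Others of the list went the other way in HES2. THY1, with 325, 100 and 177 CPM, and S100A4, with 7.60, 4.18 and 1.67, were lower in both. FN1, the largest part of the sum, stood at 2424, 51833 and 17115 CPM in H9 and 1025, 27157 and 14763 in HES2. The summed level of the 10 genes was 2139, 667 and 1131 CPM in H9 and 2012, 630 and 963 in HES2, so the marker sum was highest where the sum of the 10 was lowest within each line. Of 16 endoderm markers 10 rose and 0 fell, of 18 mesoderm markers 7 rose and 4 fell, of 10 trophoblast and amnion markers 4 rose and 0 fell, and of 8 neural ectoderm markers 3 rose and 0 fell, where 9.6% of all genes rose and 6.26% fell. The part of these cells or states in the values of the 10 genes was not tested.

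**Figure D4:**
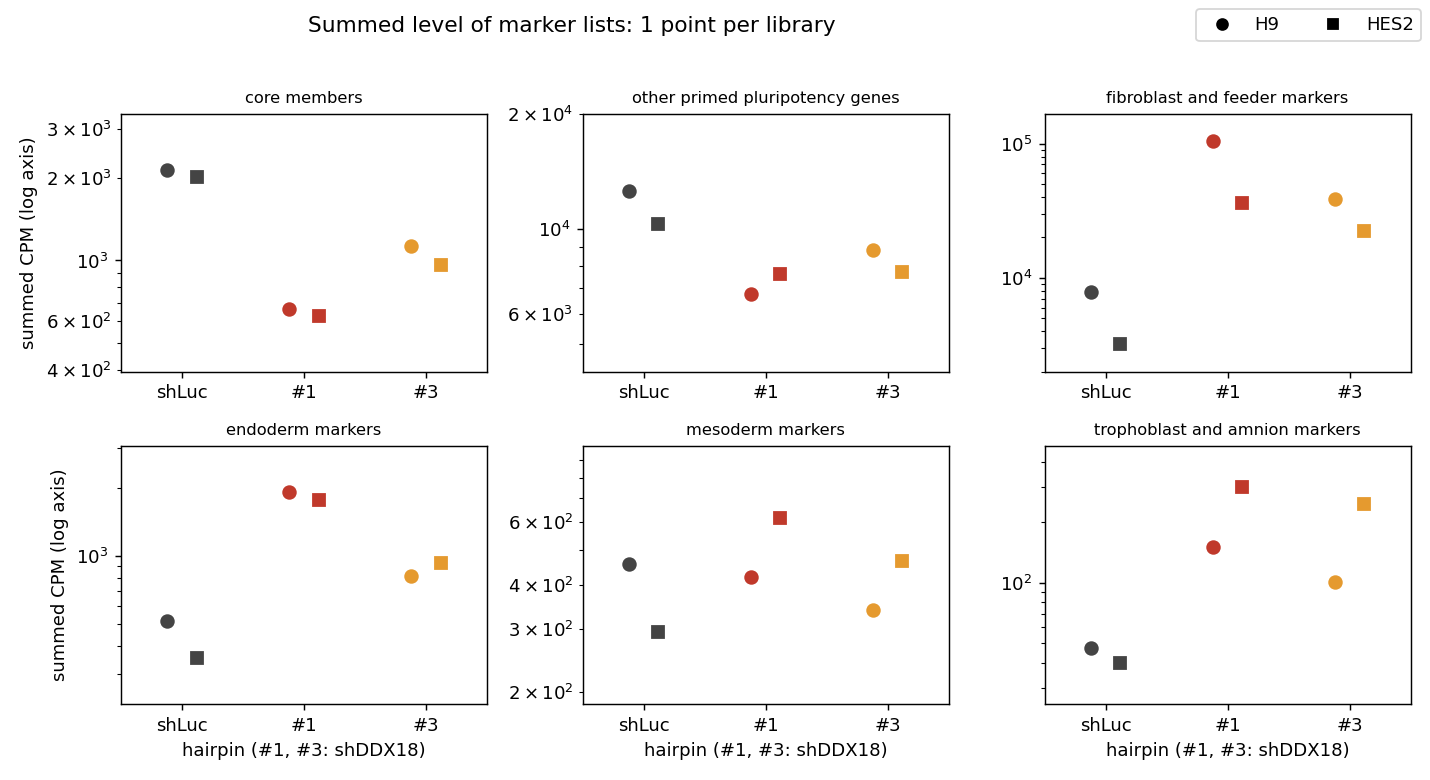
Summed CPM (log axis) of the 10 genes, the other primed pluripotency genes and 4 lists of markers of other cell types, by hairpin, 1 point per library (circles H9, squares HES2). The sum of the 10 genes is lowest with shDDX18#1, at 667 and 630 CPM, where the fibroblast and feeder sum is highest, at 104763 and 36181 CPM.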

How the data were processed

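RNA libraries were made with a TruSeq kit, which does not keep strand. Per the file headers, the authors deposited 1 table holding for each gene its signal in every library after normalization, the log2 ratio and mean of knockdown and control, a likelihood ratio (a score), its p-value and an FDR (false discovery rate). Bowtie2 2.3.4.3, SAMtools 1.9, HTSeq 0.11.2, edgeR 3.26.8 and hg19 are named per the submitters' processing notes. The read length, the authors' test design and how reads of near-identical copies were placed are not given in the sources used here. The deposited signal is scaled to 1000000 reads of an effective library (CPM), and 100% of values in each library were whole reads within a tolerance of 0.001. A floor of 3 reads was 0.671 to 1.23 CPM.

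The main test was limma 3.58.1 in R 4.3.3 on log2(value + 1) with an intensity trend, cell line as a block and Benjamini-Hochberg adjustment over 17768 genes, with 161 left out as low. All arms share 1 estimate of spread. Same-line libraries deviated together from their arm means (r of 0.36, 0.45 and 0.65 across 17768 genes, which are not independent replicates), so the line pairs the libraries. For the family, its 4 genes were replaced by their sum in the same fit. On the recovered reads, edgeR 4.0.16 called 1717 genes higher and 1189 lower in knockdown, against 1706 and 1113 in limma, and DESeq2 1.42.0 was also run. Other alternatives were the pseudocounts 0.25 and 4, no filter or 5 CPM, 3 other scalings, no trend, a robust prior, no block and leaving out each library. The fit was tested on simulated data. The members and lists were chosen with earlier results of these data known. Named besides the 10 genes were DDX18, the family sum, up to 4 genes of smallest p per list (mean of 3 CPM or more), and the 4 nearest profiles, of which 1 is not reported here. LIN28A, PODXL, FGF4, DCN, FAP, FN1, LUM, PDGFRB, THY1, S100A4 and CCHCR1 were named after their values were seen. Gene positions are GENCODE 29 on GRCh38, not hg19, and those on chromosome 8 are not given.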

Additional observations from a re-analysis of the deposited data

How the results depend on the processing

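The 10 member fold changes for knockdown against shLuc gave 180 values under the alternatives, all below 0: 148 kept their side of the threshold and 32 lost the call, 23 of them with a library left out. The 148 include 18 values of SALL4 and 17 of POU5F1, which had no call to lose. POU5F1P4 lost its call most often, in 8 of 18 alternatives. Without the intensity trend 3 of the 10 passed instead of 8, 1 instead of 6 for shDDX18#3, and the family sum, at -1.45, missed (limma adjusted p = 0.0555, with a range of 0.000126 to 0.17 over its alternatives). Leaving out each library in turn gave 0 to 8 members for knockdown, 7 to 9 for shDDX18#1, 0 to 7 for shDDX18#3, 0 to 7 between hairpins and 1 to 2 between lines. The fewest members for shDDX18#3 came without its own H9 or HES2 library, where 1 library of that hairpin was left and few of all genes passed. The most between hairpins and between lines came without either shLuc library, where more of all genes passed than in the main fit. Such counts are not read as results about the members alone. The family sum ranged from -1.76 to -1.15, with limma adjusted p = 0.0746 when the H9 control was left out and 0.17 when that of HES2 was. Between hairpins the main limma fit called 0 members and 0 of all 17768 genes. Quantile normalization called 1 member and 18 of all genes, a robust prior 2 and 43, edgeR 1 and 31, and DESeq2 2 and 113. The causes were not tested. With library totals in place of TMM the median of all genes between lines went from 0.03 to 0.15 and the split from 255 higher and 708 lower to 472 and 568, and 1 member was again called lower. All-gene counts for knockdown went from 1706 higher and 1113 lower to 886 and 342 without the trend, 439 and 46 when H9 shLuc was left out, 185 and 7 when HES2 shLuc was, and 771 and 243 when HES2 shDDX18#1 was.

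With no replicate block the pairing by line is ignored. For shDDX18#3, 0 members passed, where of all genes only 16 were called higher and 2 lower. In knockdown against shLuc POU5F1B (limma adjusted p = 0.0739) and POU5F1P4 (0.609) missed while the other 6 kept their calls. All-gene counts for knockdown were then 790 higher and 409 lower. The interaction could not be fitted without either shLuc library, and POU5F1 has no value under a filter of 5 CPM. Adding every listed copy of POU5F1 gave the same 4 genes. Reads were fewest for POU5F1, with 1 to 16 in a library, and for POU5F1P4 in HES2, with 2 to 12.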

Other observations

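On chromosome 6, 3 of 9 listed neighbours of POU5F1 were matched in the table, and like POU5F1 they had few reads in at least 1 line. CCHCR1, a coiled-coil protein gene beside POU5F1, stood at 0.277, 0 and 0.324 CPM in H9 and 4.25, 0.965 and 2.23 in HES2 for shLuc, shDDX18#1 and shDDX18#3. HLA-B, an antigen-presenting molecule of class I, was at 0.277, 0.817 and 1.3 CPM in H9 and 8.72, 66.0 and 24.5 in HES2, a line difference of 3.87 on the log2 scale (limma adjusted p = 0.0019). HLA-C went the other way, with 6.37, 11.03 and 13.3 CPM in H9 and 0, 0.644 and 0 in HES2 (-3.2, limma adjusted p = 0.00148). For knockdown against shLuc the limma adjusted p was 0.31 for CCHCR1, 0.0833 for HLA-B and 0.267 for HLA-C.

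Lineage markers were named by the smallest p, and the 4 endoderm genes so named all rose. They were APOA2 (limma adjusted p = 0.0028), the nuclear receptor HNF4A (limma adjusted p = 0.00378), CXCR4 (limma adjusted p = 0.00766) and the zinc finger factor GATA6 (limma adjusted p = 0.00898). HNF4A was at 4.98, 73.5 and 34.0 CPM in H9 and 1.79, 62.7 and 24.2 in HES2. Of the 4 mesoderm genes so named, SNAI2 (2.87, limma adjusted p = 0.0035), FOXC2 (2.78, limma adjusted p = 0.005) and NKX2-5 (1.76, limma adjusted p = 0.0139) rose on the log2 scale. The fourth, TBXT (brachyury), fell, at 18.6, 6.53 and 3.89 CPM in H9 and 38.2, 13.2 and 8.08 in HES2 (limma adjusted p = 0.0102). GATA3, used in trophoblast and amnion, rose, at 3.05, 34.7 and 12.6 CPM in H9 and 5.59, 123 and 81.0 in HES2 (limma adjusted p = 0.0055).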
